A study of Mus musculus with 73 samples.

Results

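Mixl1, Mesp1, Fgf8, Evx1, Lhx1, Gsc, Snai1 and Foxa2 are genes of the primitive streak and of the mesendoderm that first leaves it. They were taken by name from a deposited table of 30546 genes, and 7 of the 8 had a row (Snai1 is not analysed here). RNA was measured in 35 epiblasts and 37 extraembryonic ectoderms (ExE) of mouse embryos at embryonic day 6.5. A library was 1 tissue of 1 embryo, and samples of both tissues with the same genotype and embryo number are given as 1 embryo by the embryo label. For Eed embryos 8, 9 and 10 the numbers in the sample titles pair the tissues differently, so which of these epiblasts and ExE share an embryo is uncertain. The question addressed here was how far each embryo had entered gastrulation and whether streak genes were early or missing in the knockouts.

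Wild-type embryos of the cross BDF1xCAST (BDF1 mother, CAST father) gave 7 epiblasts and 7 ExE. The reciprocal wild-type cross CASTxBDF1 gave 4 of each. The other groups were BDF1xCAST embryos with a disrupted gene, namely Dnmt1 (3 epiblasts, 3 ExE), G9a together with Glp (6 and 8), Rnf2 (6 and 5) and Eed (9 and 10). Dnmt1 is the maintenance DNA methyltransferase, and G9a (Ehmt2) and Glp (Ehmt1) methylate lysine 9 of histone H3. Rnf2 is the catalytic subunit of Polycomb repressive complex PRC1, and Eed is a core subunit of PRC2, which methylates lysine 27 of histone H3. Knockouts were made per the labels by injecting Cas9 mRNA and several guide RNAs into zygotes from intracytoplasmic sperm injection, with transfer to CD-1 females, so each knockout embryo was edited on its own. The reciprocal cross came from natural mating, and the direction of the cross and the mode of fertilisation cannot be told apart. The visceral endoderm was stripped from both tissues per the labels. In these bulk samples, fewer streak cells and less RNA per streak cell cannot be told apart.

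The streak forms at the posterior edge of the epiblast, where Nodal, Wnt3 and Bmp4 signals from epiblast and ExE meet. Cells there switch on T (Brachyury), pass through an epithelial to mesenchymal transition and leave as mesoderm or definitive endoderm. Fgf8 is a growth factor of the streak that cells need to move away from it. Mixl1 is a homeobox factor of nascent mesendoderm, Mesp1 is the basic helix-loop-helix factor of the first cardiac and cranial mesoderm, and Evx1 is a homeobox factor of the posterior streak. Gsc, Lhx1 and Foxa2 are transcription factors of the anterior streak, the organiser and the endoderm, and the same 3 genes are active in anterior visceral endoderm. Snai1 drives the transition itself.

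On mm10 the rows lay at chr1:180693043-180709055 (Mixl1), chr7:79792241-79793590 (Mesp1), chr19:45736798-45742938 (Fgf8), chr6:52313498-52318389 (Evx1), chr11:84519379-84525534 (Lhx1), chr12:104471209-104473236 (Gsc) and chr2:148042877-148046969 (Foxa2). The Evx1 row overlaps that of the antisense gene Evx1os, and no use of strand is stated, so its values are uncertain as those of Evx1 alone. A RefSeq table of promoters (build GRCm38.p6) held 5 of the 7 genes. The 250 bases before the start are shown for Mesp1 and Gsc, because the first was lower in Rnf2 and Eed epiblast and the second was higher in Rnf2 and Eed ExE. Capitals mark CG dinucleotides, the sites of DNA methylation and, where dense, a known feature of Polycomb target promoters. Mesp1 is read from the minus strand of chr7:79793591-79793840 and Gsc from the minus strand of chr12:104473237-104473486.
Mesp1: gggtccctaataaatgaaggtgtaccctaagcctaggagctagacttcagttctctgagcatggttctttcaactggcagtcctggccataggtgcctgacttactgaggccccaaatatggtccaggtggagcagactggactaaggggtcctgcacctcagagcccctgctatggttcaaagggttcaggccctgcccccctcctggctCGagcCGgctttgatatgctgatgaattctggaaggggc
Gsc: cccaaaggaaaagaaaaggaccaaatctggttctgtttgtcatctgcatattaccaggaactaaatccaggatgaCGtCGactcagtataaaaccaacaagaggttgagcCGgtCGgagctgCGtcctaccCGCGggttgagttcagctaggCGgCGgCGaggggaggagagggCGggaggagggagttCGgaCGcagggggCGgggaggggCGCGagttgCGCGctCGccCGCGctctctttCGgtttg
The Mesp1 stretch held 2 CG dinucleotides and the Gsc stretch 22. Among 32851 promoters, 18.8% had fewer than Mesp1 and 85.2% fewer than Gsc, against a median of 6. Lhx1 had 26 and Evx1 had 10. Foxa2 had 3 starts, with 6 for the longest transcript and 20 and 13 for the others. The core of the TCF/LEF motif, CTTTGAT or ATCAAAG, was found in the Mesp1 stretch, in no stretch of the other 4 genes, and in 3.21% of all promoters. These letters are a description of the sequence and were not tested for binding.

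Libraries held 1141414 to 17653087 counted reads, where a count is a read over a position at which BDF1 and CAST differ. The Rnf2 epiblast libraries were the deepest of their tissue (5549733 to 17653087, against 1311863 to 3028267 in BDF1xCAST wild type), while Rnf2 ExE libraries held 1847681 to 10263280. Levels are given as CPM, the standard scaling of a gene's reads by the total of its library, and they are not compared between genes, because such counts depend on a transcript's length and polymorphisms. The targeted gene was below every wild-type library in 9 of 9 epiblasts and 10 of 10 ExE for Eed, 3 of 3 and 2 of 3 for Dnmt1, and 4 of 6 and 0 of 5 for Rnf2. For G9a-Glp, Ehmt1 was below in 2 of 6 epiblasts and 5 of 8 ExE, and Ehmt2 in 0 of 6 and 6 of 8. A small deletion need not lower the read count of its gene. The summed level of 10 epiblast markers was 3505 to 5779 CPM in BDF1xCAST epiblast and 749 to 1262 CPM in ExE, although Pou5f1 stood at 0 to 1.61 CPM in the epiblasts. The summed level of 12 visceral endoderm markers was 89.4 to 298 CPM in 6 of the BDF1xCAST epiblasts and 1134 CPM in embryo 8, and it was 4294 CPM in CASTxBDF1 epiblast 2. Its median was higher in each knockout than in BDF1xCAST epiblast. Levels were 484 to 762 CPM in Dnmt1, 180 to 731 in G9a-Glp, 295 to 725 in Rnf2 and 270 to 498 in Eed. Medians were 667, 378, 381 and 353 CPM against 130 CPM in BDF1xCAST wild type. The marker Apoe averaged 473, 218, 408 and 317 CPM in these knockouts, against 160 CPM in wild type. With no filter, Apoe and Rbp4 were higher in Eed epiblast (edgeR adjusted p = 0.0431 and 0.0341). Afp (1.05 against 43.8 CPM), Spink1 (2.01 against 34.3 CPM) and Apob (0.587 against 3.19 CPM) were lower there (adjusted p = 0.0254, 0.0344 and 0.0468). The part of visceral endoderm in the Foxa2, Gsc and Lhx1 levels of the knockouts was not tested. Embryo 8 was also the shallowest wild-type epiblast, and each library was left out in turn in every comparison.

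Wild-type embryos of the same nominal age differed widely in every streak gene. Mixl1 stood at 94.8, 3.96, 15.1, 25.0, 216, 119 and 239 CPM in BDF1xCAST epiblasts 1, 2, 3, 4, 6, 7 and 8. Mesp1 stood at 46.4, 1.65, 1.26, 1.61, 97.3, 42.5 and 306 CPM in the same order. The 7 embryos thus held 3 with little Mixl1 and almost no Mesp1 (embryos 2, 3 and 4) and 4 with both. T, which is no member, followed the same split at 221, 5.61, 52.0, 24.6, 302, 174 and 313 CPM.

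The other genes shared their highest embryos, but Fgf8 and Gsc did not follow the split of Mixl1, Mesp1 and T. Fgf8 had 39 reads in embryo 4 against 22 and 29 in embryos 1 and 7. Gsc had 21 and 16 reads in embryos 3 and 4 against 11 in embryo 1. Evx1 ranged from 1.68 to 26.7 CPM with a median of 13.8. Fgf8 stood at 3.63 to 36.0 CPM in 6 embryos and at 139 CPM in embryo 8. Among the anterior streak genes, Gsc ranged from 0.991 to 30.5 CPM (median 7.26), Foxa2 from 0 to 163 CPM (median 15.5) and Lhx1 from 0 to 15.2 CPM (median 2.18). Embryo 8 was the highest for 7 of the 7 genes and embryo 6 the next highest for 7 of 7, while embryo 2 was the lowest, or tied for it, for 5 of 7. Embryo 8 also had the highest level of visceral endoderm markers, and the part of those cells in its Foxa2, Gsc and Lhx1 was not tested.

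The embryos of the reciprocal cross also spread widely. Mixl1 stood at 118, 56.4, 160 and 23.9 CPM in CASTxBDF1 epiblasts 1 to 4, Mesp1 at 66.1, 34.3, 39.4 and 1.09 CPM, and Fgf8 at 25.6, 57.2, 16.4 and 27.5 CPM. Epiblast 4 was low in both Mixl1 and Mesp1 but not in Fgf8. Of 6 genes tested between the crosses with edgeR's quasi-likelihood test, 0 were called at an adjusted p under 0.05, with 0 at an unadjusted p under 0.05 and 0 by DESeq2 (0.0103% of all genes tested were called).

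**Figure D1:**
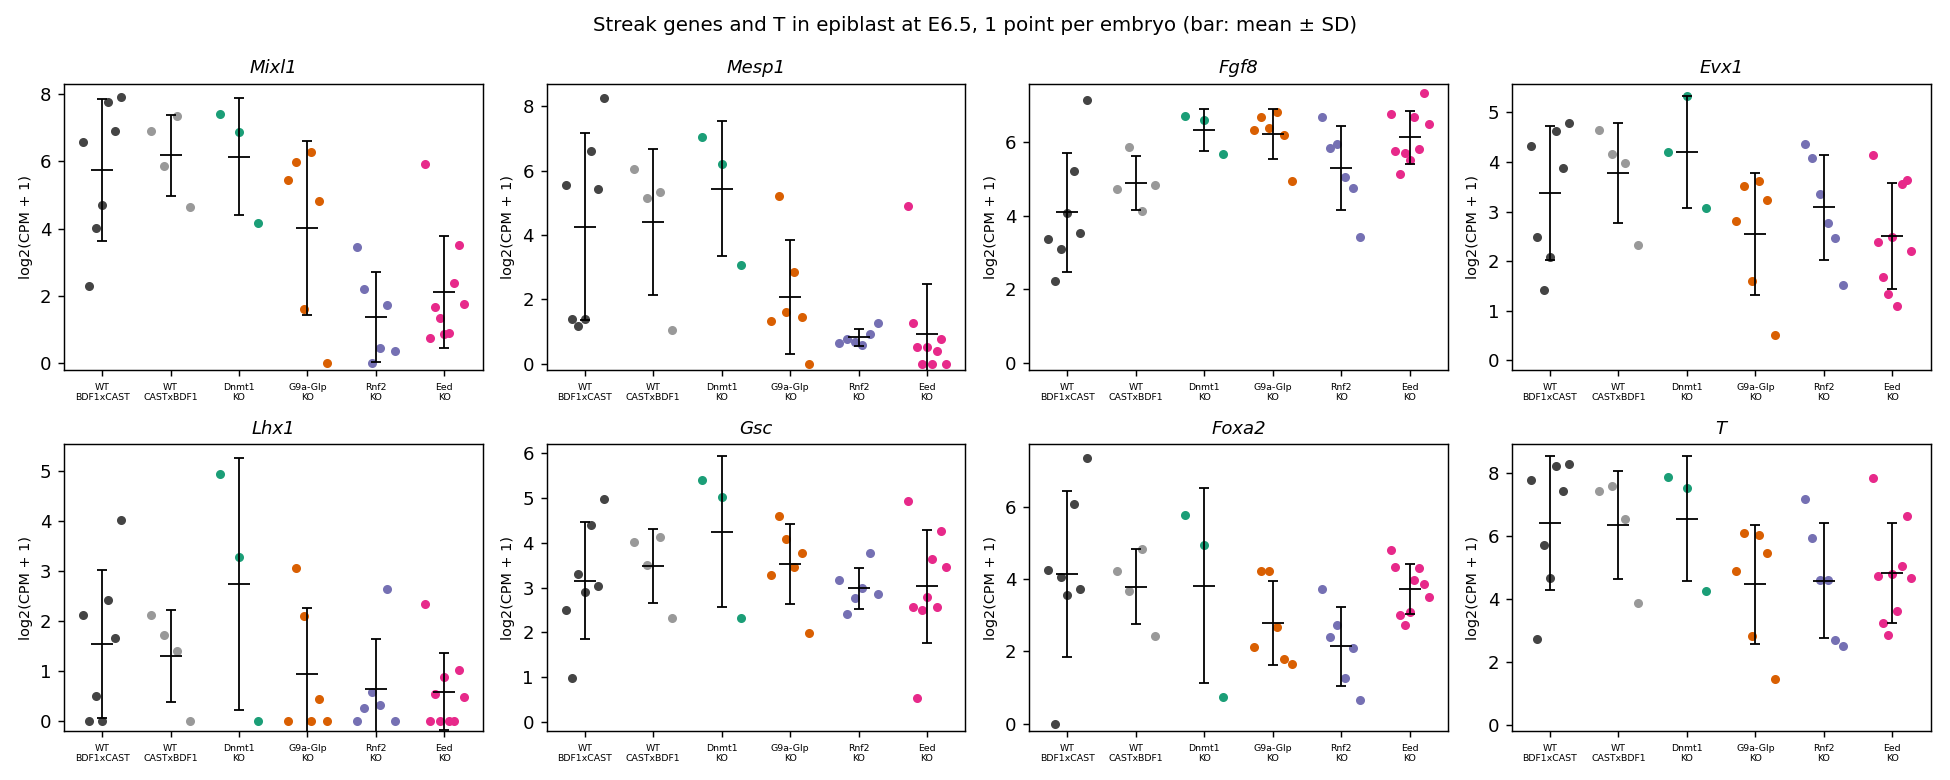
Level of the 7 streak genes and of T in each epiblast, as log2(CPM + 1) on the vertical axis, by group on the horizontal axis; points are embryos and bars the mean ± SD. Wild-type embryos spread widely for each gene, while Mixl1 and Mesp1 are low in most Rnf2 and Eed knockouts and Fgf8 is not.

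Across the 7 BDF1xCAST epiblasts, 6 of the 7 genes correlated with T by Pearson's r on the log2(CPM + 1) scale, and 5 of these also by Spearman's rho. Pearson's r was 0.96 for Mixl1 (Spearman's rho 0.93; exact permutation p = 0.00317 and 0.00675, adjusted over 7 genes 0.0111 and 0.0157). It was 0.88 for Mesp1 (rho 0.86; exact permutation, adjusted p = 0.0167 and 0.0333) and 0.79 for Evx1 (rho 0.86; exact permutation, adjusted p = 0.0433 and 0.0333). For these 3 genes r was 0.98, 0.97 and 1.00 without the 2 embryos farthest from the median of T. These 3 genes therefore tracked T from embryo to embryo.

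For the anterior genes r was 0.88 for Foxa2 (rho 0.96), 0.87 for Lhx1 (rho 0.99) and 0.79 for Gsc (rho 0.75), with exact permutation adjusted p = 0.0111, 0.0222 and 0.0433 for r and 0.00972, 0.00556 and 0.0663 for rho. Gsc thus passed by r alone, and with a pseudocount of 5 it did not (r = 0.75, exact permutation, adjusted p = 0.0694). Without the same 2 embryos r was 0.64, 0.86 and 0.45, so the relations of Foxa2 and Gsc rest on them in part. Fgf8 had r = 0.67 (rho 0.75; exact permutation, adjusted p = 0.0905 and 0.0663) and 0.67 without the 2 embryos. All values of an embryo share 1 library and its total.

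Some non-member genes moved with the streak genes from embryo to embryo within groups. Likeness was measured as Pearson's r between a gene's deviation from its group mean and the mean z-score of the members over 35 epiblasts, for 9367 genes with a mean of at least 5 CPM. Among the 8 highest were Adamts9 (0.91), A730049H05Rik (0.89), Smad1 (0.89), Il17rd (0.89), Prtg (0.88), Arid3b (0.88) and Eomes (0.87). Eomes is the T-box factor that acts with Nodal in the streak, and Smad1 carries the Bmp signal. Between members, r ranged from 0.46 (Fgf8 and Lhx1) to 0.83 (Mixl1 and Evx1). These are descriptions, without a test.

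In Dnmt1 epiblast no streak gene passed the test. In the 3 Dnmt1 epiblasts Mixl1 stood at 168, 115 and 16.8 CPM, Mesp1 at 131, 73.6 and 7.38 CPM, and T at 236, 184 and 18.1 CPM. Embryo 3 was thus low in all of them, as the low wild-type embryos were. Fgf8 stood at 103, 96.4 and 49.7 CPM, above 6 of 7 wild-type epiblasts but below embryo 8. Lhx1 stood at 29.5, 8.76 and 0 CPM, Gsc at 41.3, 31.5 and 4.03 CPM, and Evx1 at 17.3, 39.4 and 7.38 CPM. Embryo 1 was above every wild-type epiblast for Lhx1 and Gsc, and embryo 2 for Gsc and Evx1. The visceral endoderm markers in these 3 epiblasts were above all but embryo 8 of the BDF1xCAST epiblasts. With edgeR 0 of 7 genes were called (14.0% of all genes tested were), 0 passed an unadjusted p of 0.05, and DESeq2 called 0.

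The Fgf8 difference was 1.32 ± 0.81 (log2 fold change ± SE, edgeR adjusted p = 0.317). Without wild-type embryo 8 it was 2.34 (edgeR adjusted p = 0.0081). Embryo 8 had the highest Fgf8 of the BDF1xCAST wild type, so leaving it out raises this difference in every knockout. The values without embryo 8 given below for the other knockouts share this removal.

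In G9a-Glp epiblast no streak gene passed the test, and Fgf8 was high in 5 of 6 embryos. Mixl1 stood at 42.1, 61.7, 2.04, 76.2, 27.3 and 0 CPM in epiblasts 1, 2, 3, 4, 5 and 7, and Fgf8 at 79.8, 101.4, 82.8, 112, 71.7 and 29.5 CPM. In 5 embryos Fgf8 lay above every wild-type epiblast but embryo 8. Mesp1 ranged from 0 to 36.0 CPM with a median of 1.89, Foxa2 from 2.14 to 17.7 CPM (median 4.40), Evx1 from 0.428 to 11.2 CPM (median 7.20), Gsc from 2.99 to 23.2 CPM (median 11.3) and Lhx1 from 0 to 7.33 CPM (median 0.175).

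Of 6 genes tested with edgeR 0 were called (34.4% of all genes were) and 2 passed an unadjusted p of 0.05, Mesp1 and Foxa2. Mesp1 differed by -3.34 ± 1.36 (log2, adjusted p = 0.0757), Foxa2 by -2.38 ± 0.98 (adjusted p = 0.0763) and Fgf8 by 1.38 ± 0.68 (adjusted p = 0.134). DESeq2 called 1 gene, Mesp1 (-3.27, adjusted p = 0.042). Without wild-type embryo 8 Fgf8 differed by 2.43 (edgeR adjusted p = 0.0012). With G9a-Glp embryos 2 and 7 left out, as libraries whose target genes went against the label, edgeR again called 0 genes. The embryos that stayed in did not all show target loss. Ehmt1 was below every wild-type library in 2 of 6 epiblasts and Ehmt2 in 0 of 6. Leaving out embryo 2 alone gave a call for Mesp1 (-4.86, adjusted p = 0.028).

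In Rnf2 epiblast Mixl1 and Mesp1 were lower than in wild type. Mixl1 stood at 10.03, 3.59, 0, 0.378, 2.34 and 0.284 CPM in Rnf2 epiblasts 1, 2, 3, 5, 6 and 8, with 5 of 6 below every wild-type epiblast. It was lower by 5.06 on the log2 scale (-5.06 ± 1.04, edgeR adjusted p = 0.00245). Mesp1 stood at 0.566, 0.718, 0.614, 0.504, 0.901 and 1.42 CPM, again with 5 of 6 below every wild-type epiblast. It did not pass the filter on low counts, and with no filter it was lower by 6.22 on the log2 scale (-6.22 ± 1.32, edgeR adjusted p = 0.0102).

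These embryos were not uniformly low in T. Embryo 1 had 144 CPM of T and embryo 2 had 60.6 CPM, with 10.03 and 3.59 CPM of Mixl1. The ratio of Mixl1 to T was 0 to 0.433 in the Rnf2 epiblasts (median 0.0599) and 0.290 to 1.02 in the BDF1xCAST wild type (median 0.706, counts over each gene's own polymorphisms). Foxa2 ranged from 0.57 to 12.3 CPM with a median of 3.78. It fell by 3.03 on the log2 scale (-3.03 ± 0.90, edgeR adjusted p = 0.0187), a call that was lost without wild-type embryo 8 (-2.19, adjusted p = 0.053), with the embryo's sex as a covariate (-2.28, adjusted p = 0.0998) and with no filter on low counts (-2.84, adjusted p = 0.105).

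The other streak genes gave no call. Evx1 ranged from 1.85 to 19.5 CPM (median 7.50), Gsc from 4.31 to 12.6 CPM (median 6.59), Fgf8 from 9.80 to 102 CPM (median 44.3) and Lhx1 from 0 to 5.23 CPM (median 0.228). Of 5 genes tested 2 were lower (12.7% of all genes were), and with no filter 2 of 7 were lower, Mixl1 and Mesp1 (2.71% of all genes). Since the Rnf2 epiblast libraries were deeper, counts were also thinned to the smallest library, with Mixl1 and Foxa2 again lower. Fgf8 differed by 0.70 ± 0.68 (edgeR adjusted p = 0.459), and by 1.72 without wild-type embryo 8 (adjusted p = 0.0252).

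In Eed epiblast Mixl1 and Mesp1 were again lower. Mixl1 stood at 59.0 CPM in Eed epiblast 1 and at 0.704 to 10.4 CPM in the other 8, with a median of 2.22 CPM and 6 of 9 below every wild-type epiblast. It fell by 3.70 on the log2 scale (-3.70 ± 0.94, edgeR adjusted p = 0.00661). Mesp1 stood at 29.2 CPM in epiblast 1 and at 0 to 1.41 CPM in the other 8, with 7 of 9 below every wild-type epiblast. With no filter it was lower by 4.39 on the log2 scale (-4.39 ± 1.26, edgeR adjusted p = 0.0293), and leaving out wild-type embryo 8 or Eed embryo 6, 9 or 10 took the adjusted p to between 0.051 and 0.060.

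Epiblast 1 had the highest T level, 227 CPM against 6.17 to 97.8 CPM in the other 8. It held the highest level of 6 of the 7 genes. Its Mixl1 was 0.259 times its T, below each wild-type ratio. Fgf8 was not low in any Eed epiblast, at 34.2 to 160 CPM (median 55.6), and differed by 1.25 ± 0.60 (edgeR adjusted p = 0.113). Without wild-type embryo 8 the difference was 2.30 (adjusted p = 0.0012).

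Foxa2 ranged from 5.65 to 26.7 CPM in Eed epiblast (median 13.5) and differed by -1.65 ± 0.68 (adjusted p = 0.0659). Evx1 ranged from 1.14 to 16.6 CPM (median 4.22), Gsc from 0.444 to 29.7 CPM (median 5.90) and Lhx1 from 0 to 4.03 CPM (median 0.399). Of 5 genes tested 1 was lower (18.8% of all genes were), and with no filter 2 of 7 were (9.03% of all genes). The 8 markers of anterior visceral endoderm, 2 of which (Lefty1 and Cer1) are also in the list of streak signals, summed to 207 to 453 CPM in Eed epiblast against 81.4 to 146 CPM in wild type. Lefty1 (155 against 8.61 CPM on average) and Sfrp1 (77.7 against 40.3 CPM) were higher. With no filter Hhex (1.28 against 8.47 CPM, edgeR adjusted p = 0.00337) and Dkk1 (0.374 against 2.56 CPM, adjusted p = 0.0102) were lower, and Cer1 stood at 1.23 against 2.51 CPM (adjusted p = 0.218). The part of such cells in Foxa2, Gsc and Lhx1 was not tested.

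**Figure D2:**
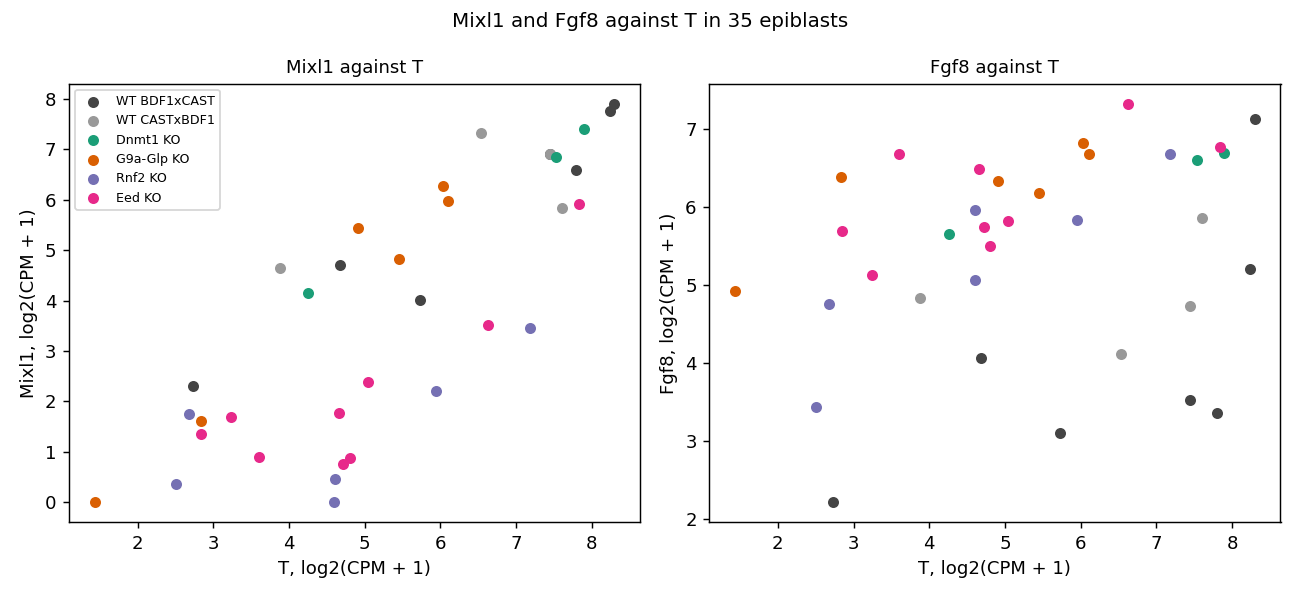
Mixl1 (left) and Fgf8 (right) against T in 35 epiblasts, both axes as log2(CPM + 1), with 1 point per embryo coloured by group. At a given T level the Rnf2 and Eed knockouts lie below the wild type for Mixl1, and the knockouts lie above most wild-type embryos for Fgf8.

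Because embryos differed widely in T, the 4 epiblast comparisons were repeated with each embryo's T level, log2(CPM + 1), as a covariate. This fit was chosen after the data had been seen. T is itself a streak gene and no independent measure of stage. It averaged 35.3, 43.6 and 51.0 CPM in G9a-Glp, Rnf2 and Eed against 156 CPM in BDF1xCAST wild type. An earlier stage and an effect of the knockout on T cannot be told apart, so these fits give levels relative to T only. At equal T, Mixl1 was still lower in Rnf2 (-3.52 ± 0.60, edgeR adjusted p = 0.000833) and in Eed (-2.37 ± 0.33, adjusted p = 6.29e-05). In G9a-Glp the Mixl1 difference was 0.55 ± 0.37 (adjusted p = 0.302) and in Dnmt1 -0.02 ± 0.29 (adjusted p = 0.965). The share of all genes called in these fits was 20.1% for Dnmt1, 25.0% for G9a-Glp, 19.6% for Rnf2 and 30.0% for Eed.

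In BDF1xCAST wild type the correlation of Fgf8 with T did not pass the threshold (r = 0.67, exact permutation, adjusted p = 0.0905). A gene that does not fall where T falls comes out higher relative to T. With that limit, Fgf8 was higher at equal T in 3 of the knockouts, in each of which average T was lower and average Fgf8 was not. The difference was 2.69 ± 0.61 in G9a-Glp (edgeR adjusted p = 0.00467), 2.35 ± 0.55 in Eed (adjusted p = 0.00438) and 2.02 ± 0.54 in Rnf2 (adjusted p = 0.0156), against 1.64 ± 0.59 in Dnmt1 (adjusted p = 0.0666). The ratio of Fgf8 to T had a median of 0.145 in BDF1xCAST wild type (0.0419 to 0.647), 2.24 in G9a-Glp (1.5 to 17.2), 2.08 in Eed (0.477 to 9.10), 1.74 in Rnf2 (0.71 to 4.83) and 0.524 in Dnmt1 (0.435 to 2.74). CASTxBDF1 wild-type epiblasts, which did not enter the fit, had ratios of 0.148, 0.296, 0.179 and 2.0, the last in the embryo with the least T. The 4 comparisons share their wild-type libraries.

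At equal T, Lhx1 was higher in Dnmt1 (1.97 ± 0.50, edgeR adjusted p = 0.0131). The Foxa2 difference in Rnf2 was no longer past the threshold (-1.16 ± 0.71, adjusted p = 0.272). Mesp1 could not be tested in Rnf2 or Eed in these fits, since it did not pass the filter on low counts. In G9a-Glp the Mesp1 difference was 0.25 ± 0.74 at equal T (adjusted p = 0.847).

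**Figure D3:**
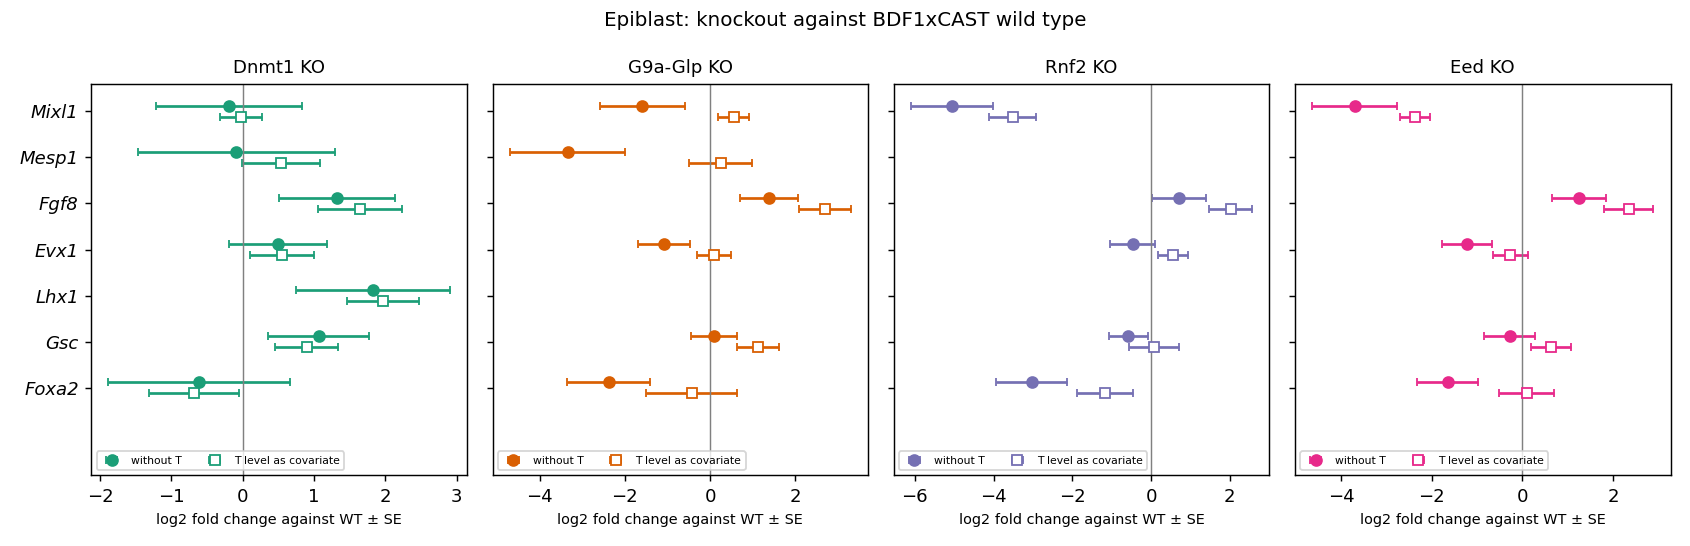
Log2 fold change of each streak gene in knockout against BDF1xCAST wild-type epiblast on the horizontal axis, with bars of 1 SE; filled circles are fits without T and open squares fits with the T level as a covariate. Genes that did not pass the filter on low counts have no point, Mixl1 stays below 0 in Rnf2 and Eed in both fits, and Fgf8 lies above 0 in all 4 knockouts.

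The knockouts were also compared with each other in epiblast. Eed against Rnf2 gave 0 of 4 genes called with edgeR (3.96% of all genes were), 1 at an unadjusted p under 0.05 (Foxa2, 1.46 ± 0.47, adjusted p = 0.0828) and 1 by DESeq2. Eed against G9a-Glp gave 0 of 5 (9.03% of all genes), 0 at an unadjusted p under 0.05 and 1 by DESeq2. Without Eed embryo 1 Mixl1 was lower in Eed than in G9a-Glp (-3.50, adjusted p = 0.0258). Rnf2 against G9a-Glp gave 0 of 5 (18.6% of all genes), 1 at an unadjusted p under 0.05 (Mixl1, -3.48 ± 1.13, adjusted p = 0.0548) and 2 by DESeq2. Leaving out Rnf2 embryo 1 or G9a-Glp embryo 3 or 7 brought that difference past the threshold (adjusted p from 0.0261 to 0.038), and leaving out Rnf2 embryo 1 did so for Foxa2 between Eed and Rnf2 (2.04, adjusted p = 0.0131).

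Other genes of the streak were read from lists chosen alongside the members. Of 24 further genes of streak and early mesoderm with a row, 15 were tested in Dnmt1 and 0 called. In G9a-Glp 4 of 10 were lower, Rnf2 had 5 of 10 lower and Eed had 7 of 9 lower, with 0 higher in each. These counts and the medians below cover only genes that passed the filter on low counts. With no filter, edgeR called Rspo3, Fst and Aplnr lower in Rnf2, and Dll3 and Cdx2 higher (adjusted p = 0.0417 and 0.0324). In Eed it called Eomes, Sp5, Mesp2, Kdr, Rspo3, Cyp26a1, Fst, Aplnr and Axin2 lower, and Dll3 higher (adjusted p = 0.0326). Of all genes tested, 7.03% were lower in Dnmt1, 14.9% in G9a-Glp, 12.7% in Rnf2 and 18.8% in Eed, and 6.93, 19.5, 18.2 and 18.0% were higher. The list's median log2 fold change was 0.18, -1.85, -1.75 and -1.81, against -0.00, 0.01, 0.00 and -0.02 over all genes tested. In G9a-Glp the lower genes that passed the filter included Rspo3, a Wnt agonist (-2.98 ± 0.55, edgeR adjusted p = 0.000496), and the apelin receptor Aplnr (-2.80 ± 0.89, adjusted p = 0.0244). In Rnf2 they included the activin antagonist Fst (-2.97 ± 0.56, adjusted p = 0.000945) and Pdgfra, a receptor of nascent mesoderm (-2.94 ± 0.76, adjusted p = 0.00827). In Eed they included Cyp26a1, which degrades retinoic acid (-3.02 ± 0.88, adjusted p = 0.0141), and Fst (-2.35 ± 0.42, adjusted p = 0.000338). T itself differed by -0.28, -2.21, -1.85 and -1.81 in the 4 knockouts (edgeR adjusted p = 0.892, 0.0783, 0.126 and 0.0925).

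The list of signals that induce or limit the streak had calls in both directions. Of its 19 genes, 1 was higher and 1 lower of 14 tested in Dnmt1, 1 and 2 of 13 in G9a-Glp, and Rnf2 had 4 and 1 of 14, while Eed had 3 and 1 of 13. Of all genes 6.93% were higher and 7.03% lower in Dnmt1, 19.5 and 14.9% in G9a-Glp, 18.2 and 12.7% in Rnf2, and 18.0 and 18.8% in Eed, so the list as a whole lay near the background. Nodal, the ligand of the streak, was higher in Dnmt1 (1.08 ± 0.33, edgeR adjusted p = 0.0439) and in Eed (1.48 ± 0.29, adjusted p = 0.00063), and, named after its value was seen, in Rnf2 (1.64 ± 0.25, adjusted p = 0.000197). Lefty1, which inhibits Nodal, was higher in Rnf2 (2.62 ± 0.60, adjusted p = 0.00382) and in Eed (4.12 ± 0.65, adjusted p = 0.000178). Bmp4 was higher in Rnf2 (3.87 ± 0.58, adjusted p = 0.000167), at 10.6 CPM against 0.65 CPM on average. Ctnnb1, beta-catenin, was lower in Dnmt1 (-0.81 ± 0.22, adjusted p = 0.0266), G9a-Glp (-0.70 ± 0.15, adjusted p = 0.00156), Rnf2 (-0.67 ± 0.13, adjusted p = 0.00114) and Eed (-0.77 ± 0.15, adjusted p = 0.000439). Fgf4 was lower in G9a-Glp (-1.96 ± 0.37, adjusted p = 0.000556), in which Tcf7l1, a repressor of Wnt targets, was higher (0.76 ± 0.25, adjusted p = 0.0263).

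Among 14 genes of axial mesoderm and endoderm with a row, 1 was higher in each knockout, Trh, and 1 of 9 tested was lower in Dnmt1. G9a-Glp had 2 of 5 lower, Rnf2 had 2 of 6 and Eed had 2 of 6, where 14.9, 12.7 and 18.8% of all genes were lower. The organiser antagonist Chrd was lower in G9a-Glp (-2.87 ± 0.64, edgeR adjusted p = 0.00224), Rnf2 (-2.59 ± 0.54, adjusted p = 0.00192) and Eed (-2.05 ± 0.56, adjusted p = 0.00751). Gpc4 was lower in Rnf2 (-1.59 ± 0.45, adjusted p = 0.0127) and Eed (-1.59 ± 0.44, adjusted p = 0.00815). Hesx1, of anterior endoderm and forebrain, was lower in Dnmt1 (-2.63 ± 0.60, adjusted p = 0.0111) and G9a-Glp (-1.37 ± 0.37, adjusted p = 0.0079). Trh was higher by 1.62 ± 0.27 in Dnmt1, 1.96 ± 0.24 in G9a-Glp, 1.08 ± 0.38 in Rnf2 and 3.04 ± 0.45 in Eed (edgeR adjusted p = 0.00177, 8.44e-06, 0.0414 and 8.87e-05).

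Of 12 genes of the epithelial to mesenchymal transition, 1 was higher and 0 lower of 8 tested in Dnmt1, 2 and 2 of 7 in G9a-Glp, and Rnf2 had 5 and 1 of 8, while Eed had 3 and 1 of 8. Of all genes 6.93, 19.5, 18.2 and 18.0% were higher and 7.03, 14.9, 12.7 and 18.8% lower in the 4 knockouts in that order. Fibronectin (Fn1), made by mesoderm on leaving the streak, was lower in G9a-Glp (-2.22 ± 0.40, edgeR adjusted p = 0.000433), Rnf2 (-2.01 ± 0.41, adjusted p = 0.00172) and Eed (-1.97 ± 0.34, adjusted p = 0.000284). The tight junction gene Cldn6 was higher in Dnmt1 (1.19 ± 0.29, adjusted p = 0.0164), G9a-Glp (1.42 ± 0.17, adjusted p = 7.62e-06), Rnf2 (1.21 ± 0.18, adjusted p = 0.000141) and Eed (1.37 ± 0.19, adjusted p = 2.85e-05). Vim was lower in G9a-Glp (-1.40 ± 0.23, adjusted p = 0.000186), and Crb3 was higher there (0.84 ± 0.26, adjusted p = 0.0179). Named after its values were seen, Vim was higher in Rnf2 (0.93 ± 0.22, adjusted p = 0.00409) and Eed (0.86 ± 0.18, adjusted p = 0.000809). Twist1, a mesenchymal factor, was higher in Rnf2 (2.53 ± 0.54, adjusted p = 0.0024) and in Eed (2.09 ± 0.52, adjusted p = 0.00357).

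In wild-type ExE the streak genes were at or near 0. Fgf8, Lhx1 and Foxa2 had 0 reads in 7 of 7 BDF1xCAST and 4 of 4 CASTxBDF1 libraries. In BDF1xCAST ExE Gsc had 2 reads, in 1 library, Mesp1 had 1 read, Evx1 had 8 and Mixl1 had 12, with Mixl1 at 0 to 1.43 CPM. A count of 0 over the 7 libraries allows a level of up to 0.148 CPM, taken as 3 reads and covering counting error only. With no filter on low counts 7 of 7 genes were lower in ExE than in epiblast of the same cross by edgeR (22.7% of all genes were). Summed over libraries, Fgf8 was at least 158-fold and Foxa2 at least 209-fold lower in ExE, and Mixl1 was 153-fold lower.

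Gsc was the streak gene that appeared in Polycomb knockout ExE. It stood at 1.42 to 6.23 CPM in the 10 Eed libraries (median 3.20) and at 2.24, 3.02, 4.33, 4.03 and 5.00 CPM in Rnf2 ExE 2, 4, 5, 6 and 7. The groups did not overlap, since the highest of the 7 wild-type libraries had 0.667 CPM. The highest CASTxBDF1 library had 1.10 CPM. No streak gene passed the filter on low counts between knockout and wild-type ExE, or between Eed and G9a-Glp ExE, and these tests used no filter. Gsc was higher in Eed (4.52 ± 0.72, edgeR adjusted p = 2.77e-06) and in Rnf2 (4.83 ± 0.76, adjusted p = 1.22e-05). From 106 and 129 reads against 2, the pooled ratio was 36.4 in Eed (95% exact interval 9.83 to 304) and 35.2 in Rnf2 (9.56 to 294), for counting error only.

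The median Gsc level in Eed and Rnf2 ExE (3.20 and 4.03 CPM) was below the 7.26 CPM of BDF1xCAST wild-type epiblast. The ranges overlapped, since that epiblast held 0.991 to 30.5 CPM, and the difference was not tested. In Dnmt1 ExE Gsc stood at 0, 0 and 0.430 CPM, and in G9a-Glp ExE at 0 to 1.12 CPM (median 0.152). Eed was higher than G9a-Glp (3.37 ± 0.63, edgeR adjusted p = 3.63e-05), with 10 of 10 libraries above all 8 (19.3% of all genes were called). Eed against Rnf2 in ExE gave -0.15 ± 0.33 for Gsc (edgeR adjusted p = 0.810), the 1 gene that passed the filter there (14.4% of all genes were called). DESeq2 called 0. Rnf2 itself was not below the lowest wild-type library in any of the 5 libraries labelled Rnf2 ExE, yet each of them carried Gsc.

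Other streak genes were detected in Eed ExE at lower levels or in fewer embryos. Mixl1 stood at 1.17 to 3.54 CPM (median 2.35) and was higher than wild type (1.77 ± 0.60, edgeR adjusted p = 0.0253), with 9 of 10 libraries above all 7 of wild type. Leaving out wild-type ExE 1, 2 or 7 took the adjusted p to between 0.055 and 0.060. Fgf8 had reads in 5 of 10 libraries (adjusted p = 0.0165), at least 5.03-fold above the limit in wild type over the summed reads. Of its 22 reads, 15 came from embryo 10 (4.27 CPM), without which the adjusted p was 0.052. Foxa2 had reads in 5 of 10 libraries (adjusted p = 0.0297), at least 3.20-fold above that limit, and without embryo 4 the adjusted p was 0.051. Thus 4 of 7 genes were higher in Eed ExE with no filter (16.3% of all genes were higher) and 1 of 6 in Rnf2 (6.92%).

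Markers of other tissue moved with these results. The 10 epiblast markers summed to 499 to 992 CPM in Eed ExE and 749 to 1262 CPM in BDF1xCAST wild-type ExE. Most of these sums was Dnmt3b (269 and 752 CPM on average) and Utf1 (412 and 191 CPM), so they could not show a small share of epiblast RNA. Tdgf1 stood at 21.0 CPM and Fgf5 at 8.53 CPM in Eed ExE 10, against at most 1.97 and 2.83 CPM in the other 9, all of which carried Gsc. The 8 markers of anterior visceral endoderm, a tissue that also uses Gsc, summed to 26.0 to 37.2 CPM in Eed ExE, 7.81 to 21.6 CPM in Rnf2 ExE and 0.357 to 5.34 CPM in wild type. With no filter, Sfrp1 (21.6 against 0.762 CPM on average), Sfrp5 (2.67 against 0.0940), Hhex (2.83 against 0.153) and Lefty1 (1.69 against 0.0967) were higher in Eed ExE than in wild type. Their edgeR adjusted p was 1.84e-08, 5.35e-05, 0.000135 and 0.00131. Dkk1, Otx2, Hesx1 and Cer1 gave no call there. Cer1, a defining gene of that tissue, had 0 reads in Rnf2 ExE and in wild-type ExE, and reads in 1 of 10 Eed ExE libraries. It averaged only 2.51 CPM in wild-type epiblast, so its near absence in ExE says little. The 12 visceral endoderm markers summed to 340 to 1490 CPM in Eed, 520 to 892 CPM in Rnf2 and 223 to 528 CPM in BDF1xCAST wild type. Of the 12, 0 were at 0 reads in any of these 3 groups. In CASTxBDF1 wild-type ExE they summed to 443 to 1253 CPM, a range that holds every Rnf2 library. Apoe alone averaged 701 CPM in Eed and 352 CPM in BDF1xCAST wild type. The part of anterior and other visceral endoderm in the Gsc level was not tested.

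In Rnf2 ExE Mixl1 stood at 1.94, 1.66, 2.16, 1.71 and 3.72 CPM, above the 7 wild-type libraries without overlap, and differed by 1.79 ± 0.65 (edgeR adjusted p = 0.0664). Foxa2 had reads in 5 of 5 libraries (0.122 to 0.611 CPM, adjusted p = 0.055). Lhx1 had 0 reads there.

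In G9a-Glp ExE Mixl1 and Fgf8 each lay above all 7 BDF1xCAST wild-type libraries in 6 of 8 embryos. With no filter neither was called by edgeR (adjusted p = 0.0517 and 0.0951). The highest levels were in 1 embryo. Embryo 8 had 27.3 CPM of Mixl1, 14.4 CPM of Mesp1, 15.3 CPM of Fgf8 and 4.63 CPM of Evx1, whereas the other 7 had 0.303 to 4.92 CPM of Mixl1 and at most 4.85 CPM of Fgf8. Its Nanog, Tdgf1 and Fgf5, which are epiblast markers, stood at 33.8, 26.9 and 17.1 CPM, against highest values of 11.2, 11.5 and 8.49 CPM in the other 7. Its 10 epiblast markers summed to 1061 CPM, within the 749 to 1262 CPM of BDF1xCAST wild-type ExE. Most of that wild-type sum was Dnmt3b (752 CPM on average) and Utf1 (191 CPM), so the sum could not show a small share of epiblast RNA. The part of epiblast cells in the streak genes of embryo 8 was not tested. With no filter edgeR called 0 of 7 genes in G9a-Glp ExE (7.64% of all genes were called), with 4 at an unadjusted p under 0.05 and 1 called by DESeq2.

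Dnmt1 ExE had 1 read each of Fgf8, Evx1, Lhx1, Gsc and Foxa2, 0 of Mesp1, and Mixl1 at 0.51, 5.85 and 1.72 CPM. With no filter edgeR called 0 of 7 genes (8.61% of all genes were), 0 had an unadjusted p under 0.05 and DESeq2 called 0.

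**Figure D4:**
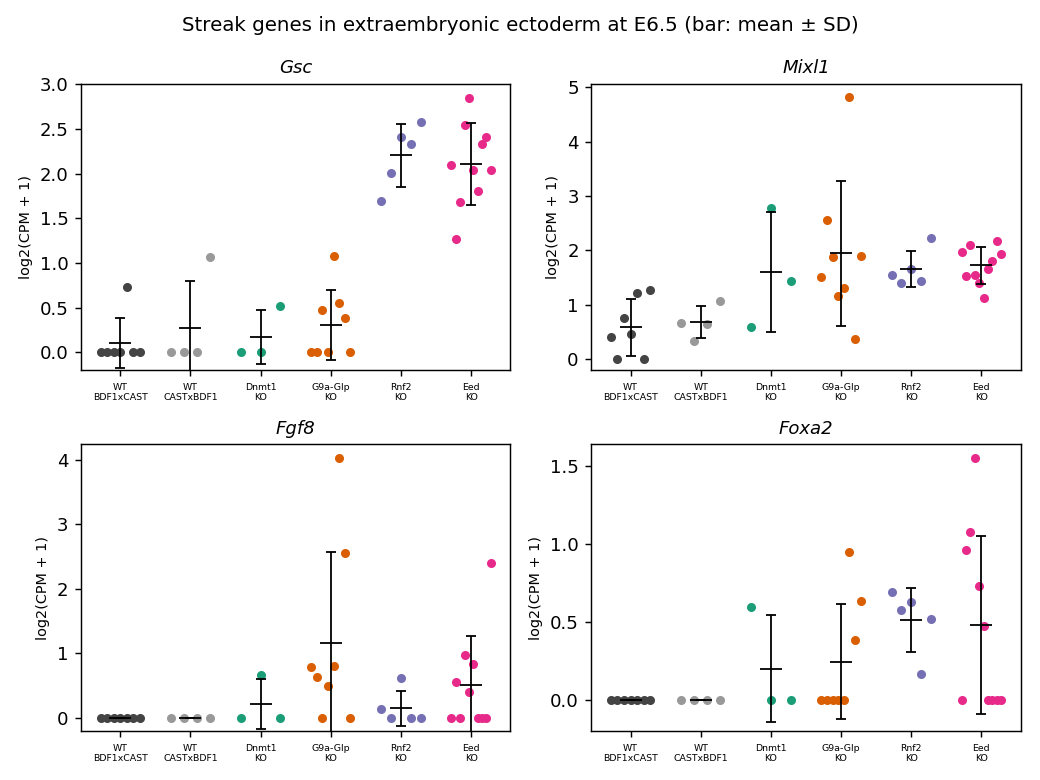
Level of Gsc, Mixl1, Fgf8 and Foxa2 in each ExE library, as log2(CPM + 1) on the vertical axis, by group on the horizontal axis; points are embryos and bars the mean ± SD. Gsc is apart from wild type in all 10 Eed and 5 Rnf2 libraries. For Mixl1 and for Fgf8, 6 of 8 G9a-Glp libraries lie above all BDF1xCAST wild-type libraries, and 1 of them stands out.

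The effects in the 2 tissues were set against each other in 1 fit per knockout. For Rnf2 the effect in ExE exceeded that in epiblast for Mixl1 (6.85 ± 1.43, edgeR adjusted p = 0.00412) and Gsc (5.44 ± 0.97, adjusted p = 0.000609). For Eed the same 2 genes differed, Mixl1 by 5.48 ± 1.33 (adjusted p = 0.00505) and Gsc by 4.80 ± 1.00 (adjusted p = 0.000865). Gsc in epiblast differed from wild type by -0.58 ± 0.50 in Rnf2 (adjusted p = 0.404) and -0.28 ± 0.57 in Eed (adjusted p = 0.726). Of all genes 6.71% and 15.8% were called in these fits. Neither Mixl1 nor Gsc passed the filter on low counts between knockout and wild type in ExE alone. The ExE side rests on 12 wild-type reads of Mixl1 and 2 of Gsc, and Mixl1 in Rnf2 ExE was not called by edgeR on its own.

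For G9a-Glp 0 of 6 genes differed between tissues by edgeR (6.59% of all genes did), with 2 at an unadjusted p under 0.05 and 2 called by DESeq2. With the embryo as a block, which uses the shared origin of the tissues, 2 were called, Mixl1 (3.86, adjusted p = 0.041) and Mesp1 (6.89, adjusted p = 0.028). For Dnmt1 0 of 7 differed (0.282% of all genes did), with 0 at an unadjusted p under 0.05 and 0 by DESeq2.

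The alleles were read apart in epiblast, for genes that reached 10 reads in 3 or more libraries per group. In wild type 0 of 6 genes tested had a parental bias by edgeR (0.319% of all genes did), with 0 at an unadjusted p under 0.05. A strain bias was called for 2 of 6, no more than the share of all genes (42.9%), so such a bias does not set the streak genes apart. Mixl1 leaned to the BDF1 allele in both crosses. The BDF1 share of its reads was 72.4, 41.7, 88.9, 69.4, 70.4, 70.3 and 90.4% in BDF1xCAST epiblasts 1, 2, 3, 4, 6, 7 and 8, and 77.0, 68.9, 84.9 and 87.9% in CASTxBDF1 epiblasts 1 to 4. The mean was 71.9 ± 16.1% (SD, n = 7) with a BDF1 mother and 79.7 ± 8.50% (SD, n = 4) with a BDF1 father (CAST against BDF1 -1.79 ± 0.23, log2, edgeR adjusted p = 3.12e-05).

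The low value came from embryo 2, with 12 reads. Foxa2 leaned to CAST, with a BDF1 share of 45.2 ± 11.7% (SD, n = 6) and 35.1 ± 8.76% (SD, n = 4; 0.56 ± 0.21, edgeR adjusted p = 0.0306), a call lost on leaving out BDF1xCAST embryo 6 or 8 or CASTxBDF1 embryo 2, 3 or 4 (adjusted p from 0.061 to 0.079). Fgf8 was near parity, with a BDF1 share of 50.1 ± 11.5% (SD, n = 7) and 46.1 ± 9.77% (SD, n = 4).

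Allelic ratios in the knockouts were compared with BDF1xCAST wild type for 4 genes in Dnmt1, 5 in G9a-Glp, 5 in Rnf2 and 5 in Eed. In each, 0 were called by edgeR (1.01, 1.90, 0.609 and 1.11% of all genes were). An unadjusted p under 0.05 was reached by 0, 0, 1 and 0 genes, the 1 being Foxa2 in Rnf2 (-1.26 ± 0.45 on the log2 scale of maternal over paternal, adjusted p = 0.298). The maternal share of Fgf8 was 52.8 ± 3.82% (SD, n = 3) in Dnmt1, 49.8 ± 6.24% (SD, n = 6) in G9a-Glp, 50.3 ± 4.89% (SD, n = 6) in Rnf2 and 54.5 ± 6.99% (SD, n = 9) in Eed. The Fgf8 reads of the knockouts therefore came from both alleles.

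**Figure D5:**
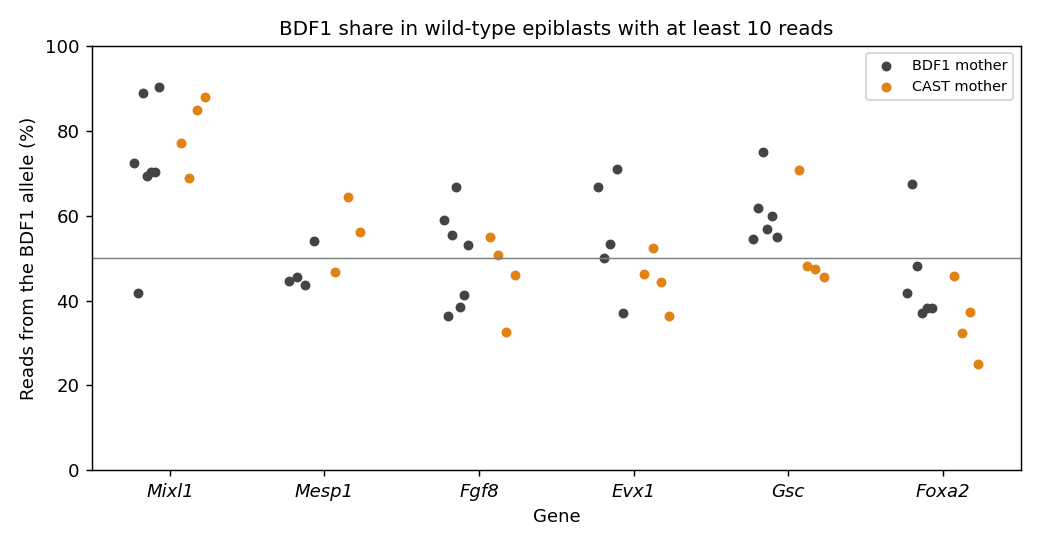
Share of reads from the BDF1 allele (percent, vertical axis) for 6 streak genes (horizontal axis) in wild-type epiblasts with at least 10 reads of the gene, by the mother's strain; each point is an embryo. Mixl1 lies above the 50% line in 10 of 11 embryos, in both crosses.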

How the data were processed

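RNA was sequenced from 72 libraries of epiblast or ExE at embryonic day 6.5, made per the labels' protocols with SMART-Seq v4 and Nextera XT from small numbers of cells. STAR 2.5.0 and HTSeq are named in the submitters' processing notes, without their settings, with mouse build mm10. The deposited table gives per gene and library a total read count over positions that differ between BDF1 and CAST, taken here as counts with a missing value read as 0. It also gives an allelic ratio, a deposited score equal to the CAST share minus a constant for parity, and an allelic score, a signed −log10 of a binomial p-value per the file headers and values. Reads per allele were rebuilt from total and ratio. For values over 100 reads, the count near that estimate with the closest match to the deposited score was taken. The match was within 0.002 for 99.9% of 308697 such values. Since the score was used to choose the counts, this is a closeness of fit and not an independent check.

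Counts were compared with edgeR 4.0.16 (R 4.3.3; filterByExpr, TMM, robust quasi-likelihood test, two-sided, Benjamini-Hochberg over all genes tested, threshold 0.05), with DESeq2 1.42.0 as an alternative. The SE of a log2 fold change is its size over the square root of F. Alleles were compared in edgeR with the reads of each allele as a column and each library as a term. The scripts were tested on simulated data. Permutation tests used scipy 1.17.1. CPM used the library's total counted reads, and log2 values a pseudocount of 1.

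Alternatives were other scaling, no filter, thinning to the smallest library, sex as a covariate, all groups in 1 fit, a replicate block, leaving out each library, leaving out libraries whose target gene goes against the label, and the T level as a covariate. Members and lists were chosen with earlier results of these data known. Named were the members, the targeted genes, T, up to 2 genes per direction with the largest called fold change in each list and epiblast comparison, and the 8 genes most like the members, of which 1 is not reported here. Epiblast and ExE with the same number came from 1 embryo per the embryo labels, and the correlation of their deviations from the group mean averaged 0.19 in BDF1xCAST wild type (0.023 to 0.37). For Eed embryos 8, 9 and 10 the title numbers pair the tissues differently. The embryo label was used there, with a mean correlation over all Eed pairs of 0.027 (-0.45 to 0.28) that rests on this uncertain pairing.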

Additional observations from a re-analysis of the deposited data

Results flagged for a closer look

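Of 54 sets of values examined for a sample far from the others, 8 had one by Dixon's criterion, which chance gives in about 1 in 20 sets. In Eed epiblast, embryo 1 stood apart for Mesp1 (29.2 CPM) and Lhx1 (4.03 CPM), and its T was also the highest of its group. In Eed ExE, embryo 1 stood apart for Mesp1 (1.82 CPM), and embryo 10 for Fgf8 (4.27 CPM) and Evx1 (1.71 CPM), with raised Tdgf1 and Fgf5. In G9a-Glp epiblast, embryo 7 was low for Fgf8 (29.5 CPM). In Rnf2 epiblast, embryo 6 was high for Lhx1 (5.23 CPM), and in CASTxBDF1 wild-type ExE, embryo 4 was high for Gsc (1.10 CPM).

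The knockout effect differed between the tissues by edgeR for 2 genes in 2 knockouts, on the log2 scale and as ExE minus epiblast. For Rnf2 the difference was 6.85 for Mixl1 and 5.44 for Gsc. For Eed it was 5.48 for Mixl1 and 4.80 for Gsc. The ExE side of these differences rests on 12 wild-type reads of Mixl1 and 2 of Gsc.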

How the results depend on the processing

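Mixl1 stayed lower and past the threshold in Rnf2 and Eed epiblast under the alternatives run. The T covariate turned 8 of 23 directions from negative to positive, none past the threshold in either fit: Mixl1 (0.55), Mesp1 (0.25) and Evx1 (0.088) in G9a-Glp, Evx1 (0.56) and Gsc (0.085) in Rnf2, Gsc (0.64) and Foxa2 (0.093) in Eed and Mesp1 in Dnmt1 (0.54). The cause of the changes below was not tested.

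The number of streak genes called changed by over 1.5 times as follows. Without the filter it was 2 in Eed epiblast, 1 in Rnf2 ExE, 4 in Eed ExE, 7 between wild-type tissues and 1 for Eed against G9a-Glp ExE, where more genes were tested. DESeq2 called 1 in G9a-Glp epiblast, 2 in Eed epiblast, 1, 2 and 2 in G9a-Glp, Rnf2 and Eed ExE, 7 between tissues, 1 for Eed against Rnf2, 1 for Eed against G9a-Glp and 2 for Rnf2 against G9a-Glp epiblast, 1 for Eed against G9a-Glp ExE, and 2, 4 and 4 between tissue effects for G9a-Glp, Rnf2 and Eed. Thinning gave 1 in G9a-Glp epiblast and 0 between tissues. Sex as a covariate gave 1 in G9a-Glp and 1 in Rnf2 epiblast. All groups in 1 fit gave 2 in G9a-Glp and 2 in Eed epiblast and 2, 1 and 2 in G9a-Glp, Rnf2 and Eed ExE. The T covariate gave 1 in Dnmt1, 1 in G9a-Glp and 2 in Eed epiblast. Smaller changes were from 2 to 3 genes in Rnf2 epiblast (DESeq2, and all groups in 1 fit), from 2 to 3 for the Rnf2 tissue difference (no filter, and the block), from 2 to 3 for that of Eed (the block, with the uncertain pairing of Eed embryos 8 to 10) and from 6 to 5 genes correlated with T (pseudocount 5).

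Knockout and wild-type embryos share only a number, and the deviations of same-numbered libraries correlated at -0.12 to 0.056 on average. The replicate block gave 1 gene in Dnmt1, 1 in G9a-Glp, 1 in Rnf2 and 2 in Eed epiblast, 1 for Eed against Rnf2, 1 for Eed against G9a-Glp and 1 for Rnf2 against G9a-Glp, and 2 for the G9a-Glp tissue difference. With the block Fgf8 differed by 3.33 in Dnmt1, 2.96 in G9a-Glp and 1.62 in Eed (edgeR adjusted p = 0.000643, 8.41e-05 and 0.0415). Over all genes the block took the calls from 3136 to 1144 in Rnf2 epiblast and from 3613 to 1937 in Eed epiblast.

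Leaving out 1 library at a time gave 0 to 1 genes in Dnmt1 epiblast, 0 to 2 in G9a-Glp epiblast, 1 to 2 in Eed epiblast, 0 to 1 for Eed against G9a-Glp, 0 to 1 for Eed against Rnf2, 0 to 1 for Rnf2 against G9a-Glp, 0 to 2 for the G9a-Glp tissue difference, 2 to 3 for those of Rnf2 and Eed, 1 to 2 for the strain bias and 2 to 4 between tissues. Counting error limits ExE, where most streak genes had a few reads.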

Other observations

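T kept reads in ExE, where the 7 streak genes had almost none. Its level in BDF1xCAST ExE was 16.1 to 60.4 CPM. The maternal share of T reads there was 76.9 ± 8.83% (SD, n = 7), and 73.8 ± 7.09% (SD, n = 4) in CASTxBDF1 ExE, so the larger share was the mother's in both crosses. In knockout ExE the maternal share was 55.1 ± 10.2% (SD, n = 8) in G9a-Glp, 44.7 ± 4.50% (SD, n = 5) in Rnf2, 52.9 ± 15.5% (SD, n = 9) in Eed and 67.6 ± 22.4% (SD, n = 3) in Dnmt1. These shares were not tested against each other. The row of T overlaps that of T2, and the reads of the 2 cannot be told apart.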
